A study of Homo sapiens with 3 samples.

Results

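The genes that make fatty acids and cholesterol were described step by step in C4-2, a human prostate adenocarcinoma cell line derived from LNCaP. They were 41 genes named from textbook pathways, chosen with earlier results of these data known. They were found in the deposited tables through GENCODE symbols. All 41 matched, among 58302 genes in all and 19708 protein-coding ones. The tables held 3 libraries of total RNA depleted of ribosomal RNA, all of wild type C4-2 cells, labelled replicates 1, 2 and 3 of a single group with no treatment. The study set adenocarcinoma against neuroendocrine lines and then depleted neuropilin-2 with siRNA for 48 h; the samples of those experiments were not analysed here, and no contrast between conditions was made. Whether the replicates were separate cultures was not stated, so p-values cover the spread among these libraries alone, which could be technical.

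Cells build fatty acids from cytosolic acetyl-CoA, which is carboxylated to malonyl-CoA and joined into chains by fatty acid synthase, then lengthened and desaturated in the endoplasmic reticulum. The same acetyl-CoA feeds the mevalonate route to squalene and the sterols. Both branches are switched on by the SREBP transcription factors, which SCAP carries out of the endoplasmic reticulum for cleavage and which INSIG proteins hold back when sterols are plentiful. In prostate cells androgens raise the transcription of many of these genes, and fatty acid synthase is known for its abundance in prostate carcinoma.

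The libraries held 47513470 to 51200272 reads assigned to genes. Levels are given in TPM, reads per exon length scaled to the same total over all genes of every library, so genes of different length can be set side by side; 1 RNA, RN7SL2, took 16.3% of that total. Values of the libraries are in the order replicate 1, 2, 3, and means carry the SD over n = 3. The identity of the line was checked on marker genes. All 8 luminal prostate markers were detected, with a summed level of 3993 to 4049 TPM. Of 5 neuroendocrine markers 4 were detected, at a summed 5.07 to 6.29 TPM. None of 8 fibroblast, endothelial and blood markers was detected (0.354 to 1.08 TPM summed, with COL1A2 and HBB at 0 reads in every library). Of 4 adipocyte markers 1 was (0.311 to 0.680 TPM summed, with ADIPOQ at 0). CD68, a blood marker, had 5, 28 and 14 reads. It shares 85.8% of its exon bases with other genes, and reads over such bases are dropped by the counting. Per unshared exon base CD68 averaged 3.02 ± 2.37 TPM, above the sum given for its group. ADIPOQ shares 46.2% of its exon bases. A count of 0 allows up to 3 reads, or 0.0631 CPM (reads scaled to the total of a library) in the one with fewest reads, for counting error only and with reads taken as independent; were both mates of each fragment counted, the limit would be 2 times that. In such bulk RNA, fewer cells of a type and less RNA per cell cannot be told apart.

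Nearly all lipid synthesis genes were expressed, and several were among the most abundant transcripts of the cell. At least 10 reads in every library, the rule for a detected gene, were found for 40 of 41 members, against 71.8% of protein-coding genes. Means of 1 TPM or more were found for 40 members, against 62.7% of protein-coding genes. At least 10 TPM was reached by 33 members (background 42.9%) and at least 100 TPM by 13 (background 6.84%). The median member lay at 44.1 TPM, and the median protein-coding gene at 5.43 TPM. Of the 41 members, 11 ranked among the top 1000 of 19708 protein-coding genes. Together the members held 4792, 4811 and 4735 TPM, or 1.06%, 1.04% and 1.07% of reads.

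**Figure D1:**
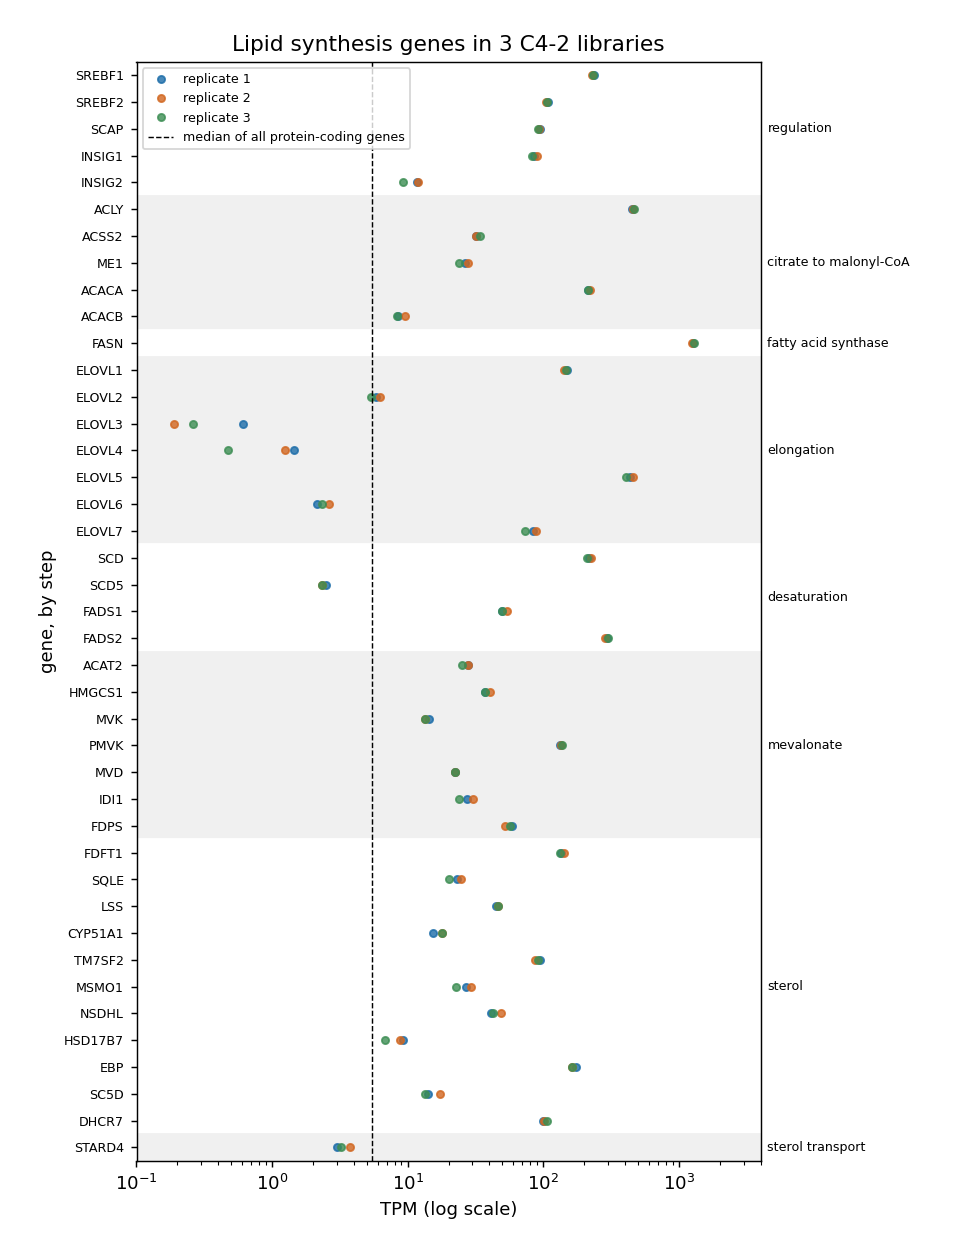
TPM on a log scale of each of the 41 genes, grouped by step, with a point per library; the dashed line is the median of all protein-coding genes (5.43 TPM). FASN stands highest at 1271 TPM, ELOVL3 lowest at 0.353 TPM, and 36 of 41 genes have means above the line.

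Among the regulators, both SREBP genes were abundant. SREBF1, which encodes the form that mainly drives fatty acid genes, had 238, 229 and 234 TPM. SREBF2, whose product mainly drives cholesterol genes, had 108, 105 and 107 TPM. SREBF1 exceeded SREBF2 in every library with no overlap, by 1.13 ± 0.00859 on the log2(TPM + 0.1) scale, a 2.19-fold difference. SCAP, the escort of both factors, was as even between libraries, at 94.8, 93.3 and 92.0 TPM. The retention factor gene INSIG1 had 85.4, 90.6 and 82.5 TPM, and its paralog INSIG2 11.7, 11.9 and 9.25 TPM. INSIG1 therefore lay above INSIG2 by 2.97 ± 0.149 log2 units, or 7.85-fold. In order of level the regulators ran SREBF1, SREBF2, SCAP, INSIG1 and INSIG2; SCAP and INSIG1 were the closest neighbours, and their libraries did not overlap.

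The promoters of 5 members are shown because they carry, or lack, sequence words tied to SREBP control, and they include the 2 SREBP genes themselves. The sequences are from RefSeq (GRCh38.p14), on the gene's strand; of the 250 bases before the RefSeq start, those that lie in an exon of the deposited annotation were left out. Capitals mark the sterol regulatory element word TCACNCCAC and the CCAAT box, the NF-Y motif CCAAT, each read on both strands (ATTGG is CCAAT on the other strand).
SREBF2 (chr22:41832855-41833078, plus strand): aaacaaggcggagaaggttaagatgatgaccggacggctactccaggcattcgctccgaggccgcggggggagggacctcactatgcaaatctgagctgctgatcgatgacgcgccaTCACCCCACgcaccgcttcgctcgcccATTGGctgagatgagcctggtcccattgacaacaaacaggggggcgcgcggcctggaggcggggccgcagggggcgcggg
SREBF1 (chr17:17837003-17837236, minus strand): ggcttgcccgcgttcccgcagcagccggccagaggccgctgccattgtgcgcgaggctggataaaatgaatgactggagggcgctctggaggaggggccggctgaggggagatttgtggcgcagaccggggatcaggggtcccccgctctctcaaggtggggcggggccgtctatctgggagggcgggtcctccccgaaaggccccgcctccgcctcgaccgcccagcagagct
INSIG1 (chr7:155297628-155297775, plus strand): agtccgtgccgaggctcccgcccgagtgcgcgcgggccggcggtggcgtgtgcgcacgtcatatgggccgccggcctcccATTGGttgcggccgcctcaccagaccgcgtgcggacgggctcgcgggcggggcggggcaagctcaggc
SCD (chr10:100346983-100347123, plus strand): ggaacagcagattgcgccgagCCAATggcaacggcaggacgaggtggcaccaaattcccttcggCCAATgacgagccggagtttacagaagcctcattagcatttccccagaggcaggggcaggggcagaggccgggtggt
HMGCS1 (chr5:43313513-43313662, minus strand): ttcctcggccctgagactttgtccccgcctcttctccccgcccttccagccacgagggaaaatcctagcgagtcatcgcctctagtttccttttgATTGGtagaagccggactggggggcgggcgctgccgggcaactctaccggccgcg

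The sterol regulatory element word occurred in the 250 bases before the start in 1 of 37 members with a promoter sequence, SREBF2, against 0.884% of 15843 protein-coding promoters. It began 133 bases before the start of SREBF2, and a CCAAT box began 106 bases before it. SREBF1 held neither word in the 250 bases before its start, and any other start of the gene was not searched. The CCAAT box occurred in 23 of 37 members (62.2%), against 34.5% of all promoters, and it occurred 5 times each in MVK and NSDHL, enzymes of the cholesterol arm. HMGCS1 and SCD held it 2 times each, 1 of those of HMGCS1 beyond the bases shown. The GC box GGGCGG was present in 33 members (89.2%) against 56.0% of promoters, and the E-box CACGTG in 5 (13.5%) against 7.84%. These are matches of letters in a fixed window of the annotated start, and no binding was measured.

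Both SREBP genes also carry an intronic microRNA of the miR-33 family, which in human and mouse cells represses genes of cholesterol export such as ABCA1. MIR33B lies inside SREBF1 (chr17:17813836-17813931, minus strand) and MIR33A inside SREBF2 (chr22:41900944-41901012, plus strand), and neither shares a base with an exon of another gene. Their main arms share a seed (bases 2 to 8, in capitals), as the RefSeq sequences show.
hsa-miR-33b-5p: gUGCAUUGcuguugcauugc
hsa-miR-33a-5p: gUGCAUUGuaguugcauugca

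The row of MIR33B held 20, 28 and 15 reads and that of MIR33A 1, 0 and 0. These are reads over the hairpin in long-RNA libraries, so they are no measure of the mature microRNAs. ABCA1 itself had 48, 22 and 24 reads, or 0.168 ± 0.0725 TPM. A link between the miR-33 genes and this level was not tested.

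Acetyl-CoA supply and its carboxylation were uneven, with high ACLY and ACACA. ACLY, which splits cytosolic citrate into acetyl-CoA, had 447, 459 and 464 TPM. ACSS2, which makes acetyl-CoA from acetate, had 31.7, 31.9 and 34.0 TPM, and ACLY exceeded it by 3.81 ± 0.0393 log2 units (14-fold). ME1, the cytosolic malic enzyme that supplies NADPH, had 26.5, 28.1 and 24.1 TPM. Of the acetyl-CoA carboxylases, ACACA, the cytosolic form that feeds synthesis, had 214, 220 and 214 TPM. ACACB, the form at the mitochondrial surface that restrains fatty acid oxidation, had 8.47, 9.49 and 8.38 TPM. The libraries of these paralogs were far apart, with ACACA higher by 4.61 ± 0.0770 log2 units (24.4-fold).

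FASN, the multidomain enzyme that builds palmitate, was the highest member by a wide margin. It had 1280, 1250 and 1282 TPM, ranked 46 of 19708 protein-coding genes, and made up 26.6 ± 0.555% of the summed TPM of all members. The 5 highest members, FASN, ACLY, ELOVL5, FADS2 and SREBF1, held 56.3 ± 0.449% of that sum. The gene lies at chr17:82078333-82098332 (minus strand, GRCh38), and its exons had a GC content of 65.2%, the highest of the detected members.

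As a ratio of the highest to the lowest level, the chain-lengthening enzymes spanned the widest range of any step. ELOVL5, which lengthens polyunsaturated chains, had 433, 461 and 406 TPM. ELOVL1, which makes very long saturated chains, had 150, 141 and 146 TPM, and ELOVL7 83.4, 89.0 and 72.8 TPM. These 3 held most of the elongase transcripts, and ELOVL5 stood above ELOVL1 in every library (ELOVL1 minus ELOVL5, -1.57 ± 0.120 log2 units). ELOVL2, which acts on longer polyunsaturated chains than ELOVL5, averaged 5.80 ± 0.468 TPM. ELOVL6, which turns palmitate into stearate, had 2.15, 2.63 and 2.34 TPM. It lay far below ELOVL5 in every library (ELOVL6 minus ELOVL5, -7.46 ± 0.113 log2 units), the most unequal of the 12 pairs in TPM; without division by length SCD and SCD5 were further apart (6.79 log2 units, against -6.55 for ELOVL6 minus ELOVL5). ELOVL4, best known from retina and skin, had 74, 58 and 24 reads (1.45, 1.24 and 0.473 TPM), with replicate 3 the lowest. ELOVL3, the elongase of brown fat and skin in mice, was the member that missed the detection rule, with 14, 4 and 6 reads (0.608, 0.189 and 0.262 TPM).

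Desaturation was carried at the transcript level by SCD and FADS2. SCD, which puts a double bond into stearate and palmitate, had 218, 225 and 210 TPM, and its paralog SCD5 2.50, 2.31 and 2.34 TPM. SCD exceeded SCD5 by 6.45 ± 0.0777 log2 units, or 87.6-fold. FADS2, the desaturase that starts polyunsaturated synthesis, had 297, 287 and 301 TPM, and FADS1, which acts later in that route, 49.5, 53.9 and 49.98 TPM. FADS1 lay below FADS2 in every library (FADS1 minus FADS2, -2.53 ± 0.0999 log2 units). The desaturases are neighbours on chromosome 11, on opposite strands, and shared 490 exon bases, 4.79% of those of FADS1.

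**Figure D2:**
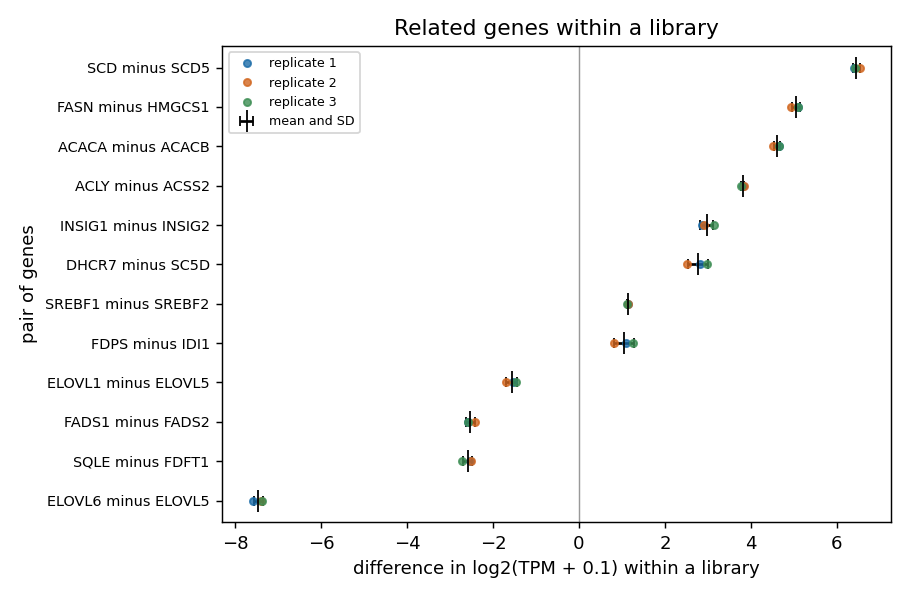
Difference in log2(TPM + 0.1) within each library for the 12 pairs of related genes, with a point per library and the mean and SD. All 3 points of each pair lie on the same side of 0; SCD minus SCD5 is highest at 6.45 and ELOVL6 minus ELOVL5 lowest at -7.46.

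The mevalonate route started at modest levels and, in TPM, peaked at PMVK. ACAT2, the cytosolic thiolase, averaged 27.0 ± 1.601 TPM and HMGCS1, which makes HMG-CoA, 38.5 ± 2.01 TPM. Per exon base not shared with another gene their order turned, with ACAT2 at 54.1 TPM and HMGCS1 at 43.2 TPM. FASN exceeded HMGCS1, which follows ACAT2 in the other branch, by 5.04 ± 0.0943 log2 units (33.0-fold). Enzymes of the route outside the 41 genes and the further lipid genes given last were not analysed here. Mevalonate kinase, MVK, had 14.4, 13.4 and 13.4 TPM, among the 3 lowest of the cholesterol arm. PMVK, the next kinase, had 133, 136 and 138 TPM, ranking with the 3 highest of that arm. Without division by length PMVK averaged 57.0 CPM, below FDPS (68.6 CPM) and HMGCS1 (59.45 CPM). The decarboxylase gene MVD had 22.4, 22.4 and 22.3 TPM, with the smallest coefficient of variation in TPM of all members (0.352%). In log2 CPM its SD over the libraries was 0.032, above those of SCD (0.0096) and FDFT1 (0.013). IDI1, which isomerises the isoprenoid unit, had 27.2, 30.1 and 23.9 TPM. FDPS, which joins these units into farnesyl diphosphate, had 58.6, 52.6 and 57.1 TPM. FDPS exceeded IDI1 by 1.05 ± 0.228 log2 units, with replicate 2 the closest at 0.80.

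Sterol synthesis was led by EBP and FDFT1. FDFT1, squalene synthase, the enzyme that commits farnesyl diphosphate to sterols, had 136, 142 and 133 TPM. SQLE, the squalene epoxidase that follows it, had 23.2, 24.6 and 20.2 TPM and lay -2.59 ± 0.103 log2 units from FDFT1. LSS, which closes the sterol rings to lanosterol, had 44.5, 46.7 and 46.6 TPM. CYP51A1, the lanosterol demethylase, had 15.3, 17.9 and 18.0 TPM with replicate 1 the lowest; 82.2% of its exon bases are shared with other genes, and per unshared base it averaged 91.6 TPM. TM7SF2, a sterol reductase, had 94.7, 87.4 and 91.6 TPM. Further enzymes of sterol demethylation were lower than TM7SF2. MSMO1 had 27.1, 29.1 and 22.7 TPM, NSDHL 41.2, 48.4 and 42.6 TPM, and HSD17B7 9.17, 8.79 and 6.80 TPM. HSD17B7 was the lowest of the cholesterol arm, with replicate 3 below the others. EBP, the sterol isomerase, had 173, 163 and 164 TPM and was the highest of the arm. SC5D, the sterol desaturase after it, had 14.04, 17.4 and 13.5 TPM, with replicate 2 the highest. DHCR7, the reductase that makes cholesterol from its last precursor, had 100, 100 and 107 TPM. It exceeded SC5D by 2.78 ± 0.233 log2 units (6.85-fold). STARD4, which moves cholesterol between membranes, averaged 3.34 ± 0.398 TPM.

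The fatty acid arm lay slightly above the cholesterol arm, and its genes were spread more widely. The 17 genes of the fatty acid arm ranged from 0.353 to 1271 TPM and the 18 of the cholesterol arm from 8.25 to 167 TPM. Summed, the fatty acid arm held 3251, 3269 and 3224 TPM and the cholesterol arm 999, 1008 and 983 TPM. The median of the fatty acid arm exceeded that of the cholesterol arm by 0.61, 0.62 and 0.70 log2 units, a mean of 0.64 ± 0.0517 (exact two-sided sign-flip permutation test, p = 0.25). This value was 0.19 when TPM was taken per exon base not shared with another gene, and 1.67 without division by length. For the 12 pairs the same exact test gave p = 0.25 each, also after Benjamini-Hochberg adjustment; 3 libraries cannot give less, so no such test could pass 0.05. All 12 differences had the same sign in 3 of 3 libraries.

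The way reads were counted bears on 5 members that share over 10% of their exon bases with another gene. Reads over such bases are dropped by the counting, while the length column still includes them. CYP51A1 shared 82.2% of its exon bases, most of them (3211 bases) with LRRD1, a gene on the same strand that had 0, 0 and 2 reads. Per unshared base its level was 91.6 ± 8.23 TPM, against 17.1 ± 1.53 TPM per full length. ACAT2 shared 52.3%, chiefly with an antisense gene listed as ENSG00000112096 and with TCP1, and its level was 54.1 ± 3.19 TPM per unshared base, against 27.0 ± 1.601 TPM. With these lengths CYP51A1 stood next to TM7SF2, at 87.6 TPM per unshared base. FDPS, IDI1 and HMGCS1 moved less: 65.9, 31.5 and 43.2 TPM per unshared base, against 56.1, 27.1 and 38.5 TPM.

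**Figure D3:**
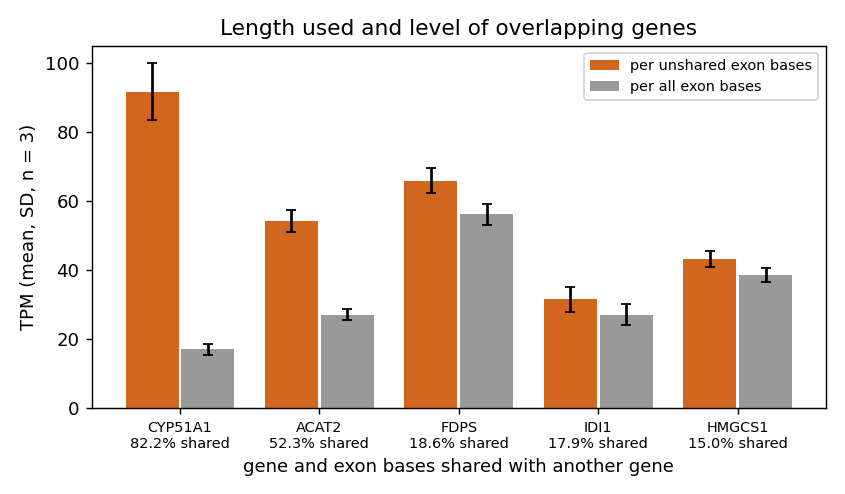
Mean TPM with SD (n = 3) of the 5 genes that share over 10% of their exon bases with another gene, computed per unshared exon base (left bar) and per full exon length (right bar). CYP51A1 reads 91.6 against 17.1 TPM and ACAT2 54.1 against 27.0 TPM; the other 3 genes differ by less.

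Between libraries the members varied little in size, though often beyond counting noise. The median member had a coefficient of variation of 4.75%, against 6.46% for detected protein-coding genes. The genes were not matched for level: the median member lay at 44.1 TPM and the median detected protein-coding gene at 15.9 TPM. A chi-square test of homogeneity, with expected counts set by TMM-normalised library sizes and adjusted by Benjamini-Hochberg over 21039 detected genes, called 28 of 40 detected members, against 46.1% of all detected genes. Deeper genes are called more easily: of members with a mean of at least 1000 reads 25 of 33 were called, against 62.6% of all such genes. Low counts are mostly even numbers (75.1% to 81.6% of values from 1 to 20 reads). Those from 100 to 1000 reads are less so (52.7% to 54.7%). Counting both mates of a fragment gives mostly even low counts. With the statistic divided by 2 for that reason, 20 of 40 members were called, against 17.6% of detected genes, and 18 of 33 deep members against 33.3%. The median called member differed 1.11-fold between its highest and lowest library. Without replicate 2 or without replicate 3 the count of called members was 17, against 23.9% and 23.8% of tested genes. Without replicate 1 it was 25, against 32.8% of tested genes. FASN, ELOVL5 and FADS2 were called each time.

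The direction of these small deviations differed with the base composition of the transcripts. Of 16 detected members with exon GC content under 45%, all 16 lay above their own mean in replicate 2 and 14 lay below it in replicate 3. Of 12 members at 55% GC or more, all 12 lay below their mean in replicate 2 and above it in replicate 3. In replicate 2 the median deviation was 0.089 log2 units for the low-GC members and -0.063 for the high-GC members. Over all detected genes it was 0.045 and -0.044. In replicate 3 the medians were -0.091 for the low-GC members and 0.046 for the high-GC members, and -0.048 and 0.049 over all detected genes. Deviations are taken from the gene's own mean, so those of replicates 2 and 3 are tied to each other. Across the 40 members GC content and the deviation had a Pearson r of -0.78 in replicate 2, 0.49 in replicate 3 and -0.076 in replicate 1. Over all detected genes r was -0.16, 0.19 and -0.028 in the same order. These are correlations across genes of the same libraries, which are not independent replicates. In log2 CPM, ELOVL7 (38.5% GC), SC5D (37.8%) and MSMO1 (39.3%) were highest in replicate 2, and FASN (65.2%), TM7SF2 (62.7%) and SREBF1 (61.7%) were lowest there. Other low-GC members called by the test differed from that: ELOVL4 (39.0%), INSIG2 (37.5%) and HSD17B7 (41.5%) were highest in replicate 1 and CYP51A1 (42.8%) in replicate 3. The part of base composition in the deviation of any single gene was not tested. When library sizes were shifted by the median of genes of like GC content, an alternative chosen after seeing the data, 23 members were called, against 38.3% of genes. With the statistic also divided by 2, 5 were called, against 9.28% of genes: ACLY, ACACA, FADS1, FADS2 and CYP51A1. The median deviation of all detected members together was 0.0037, 0.012 and 0.0080 log2 units in replicates 1, 2 and 3.

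**Figure D4:**
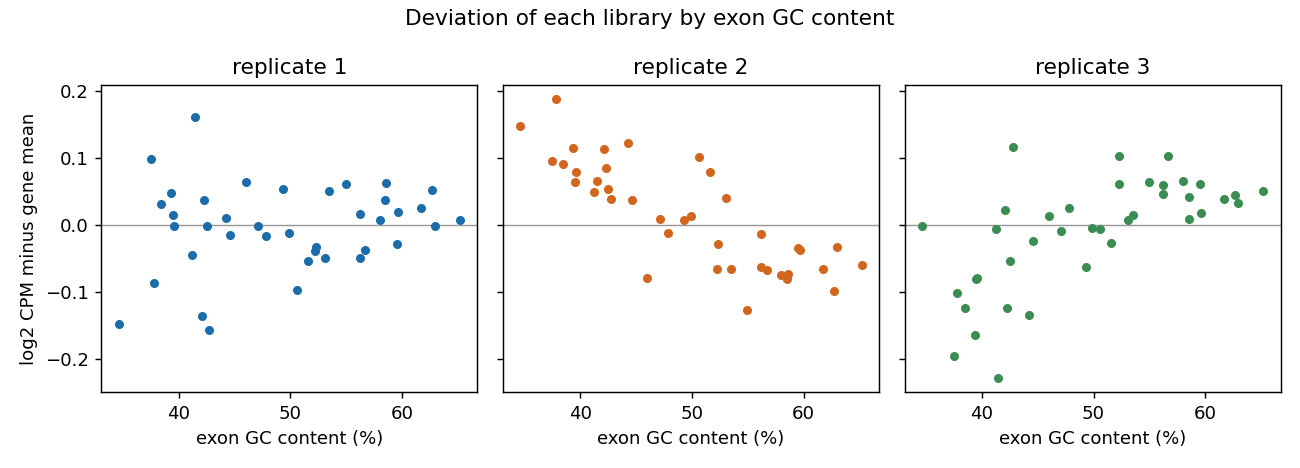
Deviation of log2 CPM from the gene's mean over the libraries (y axis) against exon GC content in percent (x axis) for detected members, with a panel per library; ELOVL4, at -0.92 in replicate 3, is left out for scale. Points slope down in replicate 2 and up in replicate 3 (Pearson r over all 40 members -0.78 and 0.49), against -0.076 in replicate 1. Over all detected genes, not drawn, r was -0.16 in replicate 2, 0.19 in replicate 3 and -0.028 in replicate 1.

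A further 41 genes of lipid handling, chosen by role, were mostly expressed as well. Of these, 37 were detected, against 71.8% of protein-coding genes, and 33 reached 1 TPM, against 62.7%. Their median was 18.4 TPM. SLC25A1, the mitochondrial carrier that exports the citrate used by ACLY, was highest at 378 ± 6.36 TPM. ACSL3, which activates fatty acids, followed at 157 ± 13.3 TPM, and TMEM97, a sterol-responsive membrane protein gene, at 149 ± 4.24 TPM. At the other end MOGAT1 and SOAT2, which make diglycerides and cholesteryl esters, had 0 reads in every library. CD36, a fatty acid uptake receptor gene, had 2, 4 and 6 reads and was not detected. Both SREBP proteases, MBTPS1 and MBTPS2, were detected, at 31.0 ± 0.754 and 18.4 ± 1.64 TPM. All 5 elongation partners and all 5 acyl-CoA synthetases were detected, as were 14 of 15 sterol handling genes; 4 of the 5 partners and 3 of the 5 synthetases reached 1 TPM, and HACD1, ACSL5 and ACSL6 averaged 0.223, 0.439 and 0.183 TPM. The between-library test called 22 of the 37 detected, against 46.1% of all detected genes.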

How the data were processed

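Gene expression was measured by RNA sequencing of 3 C4-2 libraries. Per the labels' protocols, libraries were made from 770 ng of RNA with a strand-specific kit after ribosomal RNA depletion. Per the submitters' processing notes, the submitters used Trim Galore and FastQC, STAR 2.7.0f, DESeq2 1.26.0 and Subread 1.6.3 on GRCh38. Per the file headers, the deposited values are raw read counts per gene from featureCounts 1.6.3 on Ensembl release 90, with options for annotation, output and threads alone; by default this ignores strand and drops reads that map to several places or overlap several genes. The same deposited tables give the exon length in bases.

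Symbols came from GENCODE release 44 (57532 of 58302 identifiers matched). TPM was computed over all genes; log2 values used a pseudocount of 0.1 TPM. Detection needed 10 reads in every library. TMM factors came from edgeR 4.0.16 (R 4.3.3) and alternative size factors from DESeq2 1.42.0; log2 CPM used a prior count of 2. Python 3.11.15 with scipy 1.17.1 did the rest. With 1 group, edgeR's quasi-likelihood test had no contrast, so the chi-square test of homogeneity was used, with a threshold of 0.05; it was tested on simulated counts with independent reads, which leaves paired mates out. Exon GC content came from hg38 in 20 bins. Full values per library were given for members called by the between-library test, for the 3 highest and 3 lowest of each arm and for the regulators, and of the further lipid genes the 3 highest and 3 lowest were named; ABCA1 and the SREBP proteases were added for their roles. The members and lists were chosen with earlier results of these data known. Intervals and limits cover counting error only.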

Additional observations from a re-analysis of the deposited data

How the results depend on the processing

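All 12 pair differences and the difference between the arms kept their sign under pseudocounts of 1 and 0.01, unshared exon lengths, CPM and each library left out, and the arm difference also with detected members alone (0.98) and without members sharing over 20% of exon bases (0.32). Between 39 and 41 members were detected with filters of 50 and 1 reads, and 40 with any library left out. The number of members varying between libraries was 28 with DESeq2 size factors and 32 with total counts, each against 46.2% of tested genes. Without a filter it was 27 (38.2% of tested genes), and with a library left out 17 to 25 (23.8% to 32.8%). With GC-shifted sizes and the statistic divided by 2 it was 5 (9.28%). The median member level of 44.1 TPM was 67.0 TPM over protein-coding genes alone and 51.7 TPM with unshared lengths; the protein-coding total is the smaller one. With total counts the median deviation of members became 0.028 in replicate 2 and turned to -0.0068 in replicate 3; no library size is estimated there, and the cause was not tested further. No paired analysis was possible because all 3 libraries form 1 group. Depth limits ELOVL3 and ELOVL4, which rest on 4 to 74 reads.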

Other observations

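Several non-coding genes next to the members were expressed. STARD4-AS1, antisense to the cholesterol carrier gene STARD4, averaged 2.83 ± 0.260 TPM, against 3.34 ± 0.398 TPM for STARD4 itself (SD, n = 3 each), in counts that ignored strand. INSIG1-DT, named as a divergent transcript of INSIG1, averaged 24.3 ± 1.64 TPM, and SREBF2-AS1 9.78 ± 1.04 TPM. SQLE-DT had 6, 0 and 0 reads.

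The files also held 17 pseudogenes named after members. Of these, 6 had 0 reads in every library and 5 reached 10 reads in every library. HSD17B7P2 had 104, 90 and 95 reads, 17.4% of the reads of HSD17B7, so the value of HSD17B7, a member with a close copy, is uncertain. Each of the other pseudogenes had under 3 reads for every 100 of its member, the highest being CYP51A1P3 with 2.39%. Reads that map to several places were dropped, so these low counts cannot show how many reads a member lost to its copies. This applies to FDPS, IDI1, CYP51A1 and SCD, which also have named pseudogenes.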
